A study of Bos taurus with 38 samples.

Results

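MDM2 is the E3 ubiquitin ligase that binds the tumour suppressor p53, blocks its activity and marks it for degradation, and its own gene is switched on by p53, so the pair form a feedback loop. In muscle it is also studied beside the FOXO factors, transcription factors that are active when insulin signalling is low and drive the atrophy ligases, because MDM2 can ubiquitinate FOXO proteins. Its transcript level is set by several inputs and is not a measure of p53 activity by itself. The gene described here is 1 of the 27607 genes in the count table, the row ENSBTAG00000010422, and it was selected on its measured differences between the groups, being lower in calves of cows given selenium early in pregnancy and higher in those of cows given it late. In the RefSeq annotation of assembly ARS-UCD2.0 the gene lies on chromosome 5 between the coding genes CPM (carboxypeptidase M) and SLC35E3, with 0 overlapping genes and 5 transcripts. The counts were made on assembly ARS-UCD1.2, so no coordinates are given.

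RNA of the back muscle Longissimus dorsi was sequenced from needle biopsies of 38 newborn calves of Angus-cross cows, taken 12 to 48 h after birth. Control dams (CTR, n = 10 calves) had a mineral supplement with 120 mg/kg selenium, which the other cows had as well. Cows of the other groups were also given selenium yeast boluses, 3 a week for 13 weeks and 105 mg selenium a week, in the first (TR1, n = 9), the second (TR2, n = 10) or the third (TR3, n = 9) trimester. Dams were 5 to 9 years old. By the labels CTR held 4 females and 6 males, TR1 2 females and 7 males, TR2 3 females and 7 males, and TR3 5 females and 4 males. The number of females given for CTR and TR3 in the design text differs from the labels, and the labels were used. Levels are given in CPM, counts scaled to the size of each library with the TMM factors of edgeR. The unnamed gene ENSBTAG00000054758, the one with the smallest p between the sexes, had 5.81 to 12.9 CPM in all 14 females and 0 counts in all 24 males, so each label matched this gene.

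Each calf had 12921223 to 17471666 counts (median 14121365.5). MDM2 had 300 to 1045 of them (median 638.5), which gives a counting error of 3.09% to 5.77% per calf, covering counting error only. The biological spread was far larger, with a coefficient of variation between calves of 0.258 in the edgeR fit. Skeletal muscle identity was plain in every library: the 19 skeletal muscle markers analysed, among them the actin ACTA1 and the creatine kinase CKM, summed to 48905 to 190272 CPM. The 7 leukocyte markers analysed summed to 30.5 to 342 CPM and the 3 adipocyte markers to 1.77 to 42.5 CPM. By group the adipocyte sum ran from 2.75 to 12.7 CPM in CTR, 2.05 to 42.5 in TR1, 1.77 to 10.1 in TR2 and 2.48 to 6.84 in TR3, and ADIPOQ was at 0 in at least 1 calf of each group. All 3 adipocyte markers had a negative log2 fold change in TR3 vs. TR1, with a median of -1.67 (-1.90 without A2052, the calf described next). Of them 2 (3 without A2052) had an unadjusted p under 0.05 by edgeR's quasi-likelihood test. At that level 4.08% of all genes were lower, and 1.81% without A2052. Of the 7 fibroblast markers analysed, 0 were lower and 0 higher with all calves, and 2 were lower and 0 higher without A2052. Markers could be analysed only where the study's supplementary tables named them, mostly as genes that differed in these calves. Their counts beside the share of all genes are therefore no separate support. The part of these markers in the results was not tested. In bulk muscle, fewer cells of a type and less RNA per cell cannot be told apart.

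A single library stood apart from the rest, that of A2052, a TR1 female. It had the lowest sum of skeletal muscle markers, 48905 CPM, the highest TMM factor, 1.35 against a median of 0.992, and the highest score of 16 glucocorticoid and fasting genes, 2.22 where the median TR1 calf had -0.0040. A score is the mean over the listed genes of the log2 level in SD units over the 38 calves. The results that moved most with this calf are given with and without it.

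Across all 38 calves MDM2 averaged 47.6 ± 13.1 CPM (SD, n = 38). The group means ran in the order TR3, CTR, TR2, TR1. In CTR the lowest, median and highest calf had 32.8, 43.9 and 69.2 CPM. In TR1 they had 20.4, 35.5 and 68.5 CPM, the widest range of the 4 groups. In TR2 they had 36.5, 46.0 and 56.6 CPM, the narrowest.

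In TR3 the corresponding values were 36.2, 56.4 and 73.3 CPM. The means were 55.6 ± 13.1 (SD, n = 9) in TR3, 48.6 ± 12.7 (n = 10) in CTR, 46.3 ± 6.76 (n = 10) in TR2 and 40.1 ± 15.8 (n = 9) in TR1. Each neighbouring pair in this order was closer together than 1 SD of either of its groups, so no neighbours differed beyond their spread. All 4 groups overlapped.

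**Figure D1:**
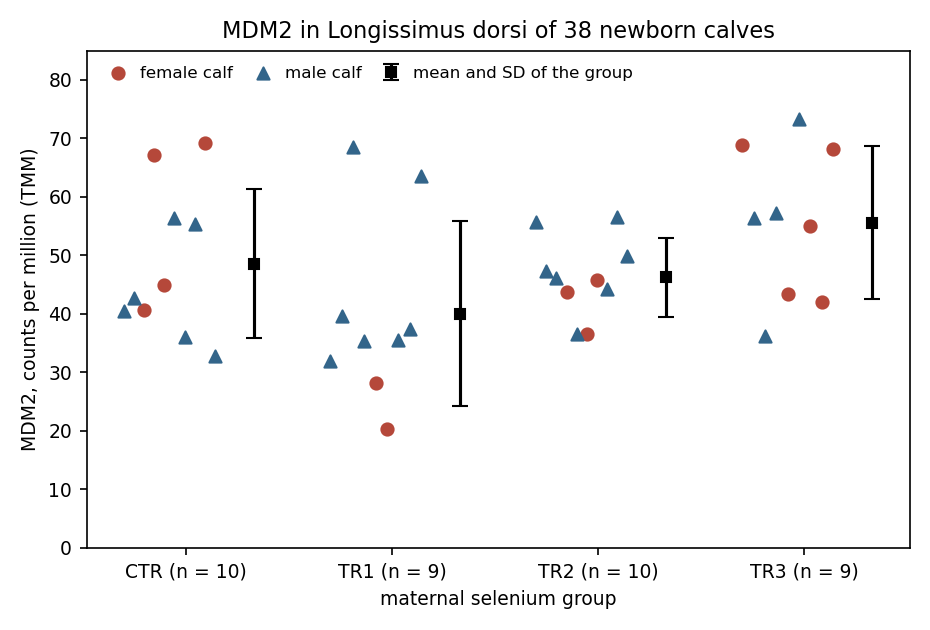
MDM2 in CPM after TMM scaling (vertical axis) in each of the 38 calves, by maternal selenium group (horizontal axis), with circles for females, triangles for males, and squares with bars for the group mean and SD. The 2 lowest calves of all are the TR1 females at 20.4 and 28.1 CPM, while TR1 also holds 2 males at 63.5 and 68.5 CPM.

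Between TR3 and TR1 the log2 fold change of MDM2 was 0.58 (SE 0.19), a 1.50-fold difference, with sex and dam age in the model. This contrast is part of why the gene was chosen, so it carries no test. Of the genes tested, 4.95% had a larger difference in size. All 9 TR3 calves lay above the TR1 median, and 7 of the 9 TR1 calves lay below the TR3 median. Only 2 TR3 calves exceeded the highest TR1 calf, and 5 TR1 calves lay below the lowest TR3 calf.

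Against CTR the differences were smaller. The log2 fold change was -0.30 (SE 0.17) for TR1, -0.11 (SE 0.17) for TR2 and 0.28 (SE 0.18) for TR3. These share the CTR calves. On a scale computed here, the difference of variance-stabilized means from CTR, centred and divided by its SD over all genes, MDM2 stood at -1.97 for TR1, -0.18 for TR2 and 1.57 for TR3. Unlike the fold changes, this scale had no term for sex or dam age. Against a limit of 1.5, the number the study used for its log2 fold changes, MDM2 was just past it in TR3. There were 47 genes (0.363%) past the limit downward in TR1 and upward in TR3, and 29 in the opposite direction. Among the 47 was ENSBTAG00000054758, the gene that separated the sexes, at -4.36 in TR1 and 3.88 in TR3. The groups differed in their share of females, and the part of sex in these counts was not tested. Scaling by library size in place of TMM gave MDM2 log2 fold changes of -0.23 in TR1, 0.31 in TR3 and 0.53 between them.

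The low end of TR1 was made of its 2 females. A2047 had 20.4 CPM and A2052 had 28.1 CPM, while the 7 TR1 males had from 31.9 to 68.5 CPM, with a median of 37.4 CPM. No calf of another group was below 32.8 CPM. In CTR the order of the sexes was the other way round, with 55.5 ± 14.8 CPM in females (SD, n = 4) and 44.0 ± 9.83 in males (n = 6). The sexes were close together in TR3, at 55.5 ± 12.9 in females (n = 5) and 55.8 ± 15.2 in males (n = 4). In TR2 females had 42.0 ± 4.87 (n = 3) and males 48.1 ± 6.91 (n = 7).

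The position of A2052 depended on the scaling and that of A2047 did not. Scaled by library size alone, without the TMM factor, A2052 had 37.9 CPM, inside the 36.0 to 63.5 CPM of the TR1 males. A2047 had 20.5 CPM on that scale. Its TMM factor was 1.00 and its skeletal muscle score of -0.10 was the median of TR1.

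Among males alone the log2 fold change of TR1 against CTR was 0.02 (SE 0.19). The male TR3 calves were higher than the male CTR calves by 0.43 (SE 0.23) and than the male TR1 calves by 0.42 (SE 0.23). TR2 males differed from CTR males by 0.15 (SE 0.19). TR1 females stood at -1.08 (SE 0.32) against CTR females, TR2 females at -0.48 (SE 0.27) and TR3 females at 0.03 (SE 0.23). Between TR3 and TR1 the female difference was 1.11 (SE 0.31).

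The difference between the sexes in the TR1 vs. CTR contrast was -1.10 (SE 0.37), with an adjusted p of 0.138 by edgeR's quasi-likelihood test over all genes, so it did not pass. For TR3 vs. TR1 it was 0.69 (SE 0.39), adjusted p = 0.341. Both were computed after the low females had been seen and rest on 2 TR1 females. In the first of these contrasts 0.81% of genes passed and 15.9% had an unadjusted p under 0.05. In the second 1.18% passed and 18.8% had an unadjusted p under 0.05. Leaving out both TR1 females gave MDM2 a log2 fold change of 0.33 (SE 0.20) for TR3 vs. TR1, -0.11 (SE 0.18) for TR1 vs. CTR and 0.21 (SE 0.17) for TR3 vs. CTR. Leaving out A2047 alone gave 0.45 (SE 0.19) for TR3 vs. TR1, and leaving out A2052 alone gave 0.53 (SE 0.20).

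**Figure D2:**
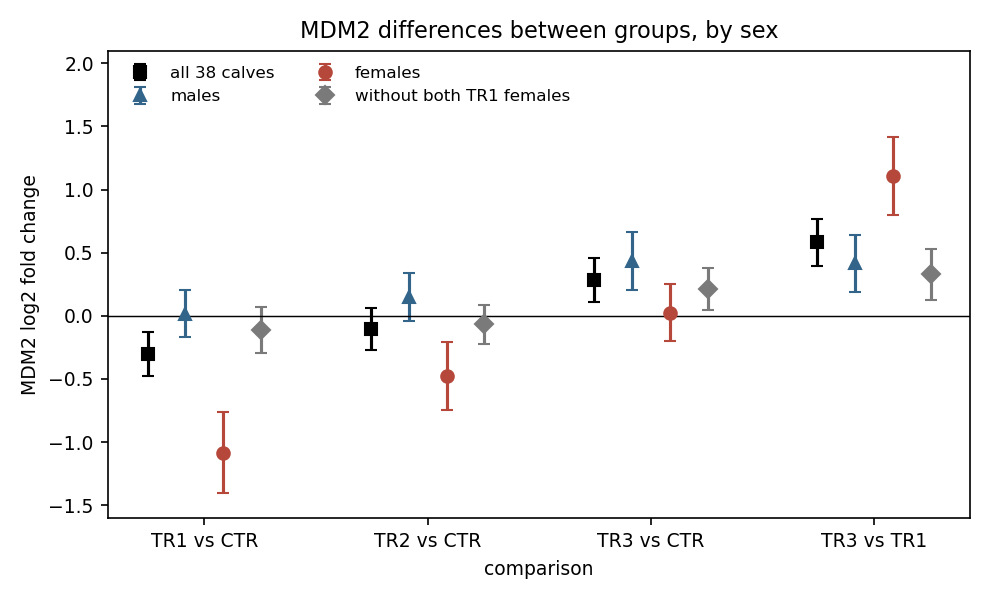
Log2 fold change of MDM2 (vertical axis) in the 4 comparisons between groups (horizontal axis), for all calves, within each sex and without the 2 TR1 females, with bars of 1 SE. For TR1 vs. CTR the female value is -1.08 and the male value 0.02, whereas for TR3 vs. CTR the male value is 0.43 and the female value 0.03.

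The measures that did not enter the choice of the gene could be tested. Over all groups, females had 48.2 ± 15.5 CPM (SD, n = 14) and males 47.3 ± 11.8 (n = 24). The log2 difference of females from males was -0.15 (SE 0.14) and did not pass edgeR's quasi-likelihood test (adjusted p = 0.910), where 0.0309% of genes did. It changed sign to 0.04 (SE 0.15) without the 2 TR1 females. With dam age MDM2 changed by 0.080 log2 units a year (SE 0.051), adjusted p = 0.993. No gene passed for dam age (0%), and 3.36% had an unadjusted p under 0.05. Calves of the 9 dams aged 5 years had a mean of 47.4 ± 16.1 CPM (SD, n = 9) and those of the 13 dams aged 6 years 44.0 ± 10.3 (n = 13).

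MDM2 moved with properties of the library. After group, sex and dam age were taken out of both, the log2 level of MDM2 fell with the number of genes detected, with Pearson's r = -0.50 and Spearman's rho = -0.49 over 38 calves (permutation p = 0.0014 and 0.0020, adjusted over 4 measures 0.0056 and 0.0080). Without the 2 calves farthest from the median number of genes, r was -0.53. It rose with the share of counts in the top 10 genes, r = 0.43 and rho = 0.42 (permutation p = 0.0068 and 0.0082, adjusted 0.0135 and 0.0164), and r was 0.43 without the 2 farthest calves. With the TMM factor r was -0.38 and rho -0.39 (permutation p = 0.0179 and 0.0161, adjusted 0.0238 and 0.0214), and -0.39 without the 2 farthest. The MDM2 level had itself been divided by this factor, so a negative value is partly built in and its p is no separate test. A2052, with the highest factor, had 16177 genes detected and the lowest top 10 share, 16.3%. The genes detected and the top 10 share were not set against MDM2 scaled by library size. Their values may therefore be partly built in as well. With total counts r was -0.17 and rho -0.15 (adjusted permutation p = 0.315 and 0.362), and -0.23 without the 2 farthest. The part of these properties in the group differences was not tested. The permutations, here and below, took no account of the terms already removed, so their p are somewhat too small.

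The p53 axis around MDM2 was read from lists of genes whose names came from the study's own lists of genes that differed in these calves, so the way they point is no separate support. Of 20 listed regulators and partners of p53, 7 could be analysed, and 13, MDM4 among them, were not analysed here. In TR3 vs. TR1 no gene of the table passed edgeR's quasi-likelihood test at an adjusted p of 0.05 (0%), and DESeq2 called 0 as well. At an unadjusted p under 0.05, 1.77% of genes were higher and 4.08% lower.

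Among the 7 regulators, the corepressor TRIM28, which works with MDM2 in restraining p53, was lower at the unadjusted level, with a log2 fold change of -0.53 (SE 0.21). Without A2052 it was 0.01 (SE 0.15). The p53 relatives TP63 and TP73 differed by -0.06 (SE 0.31) and 0.22 (SE 0.37), the checkpoint kinase CHEK2 by 0.14 (SE 0.21) and the p53 kinase HIPK2 by 0.01 (SE 0.27). The acetyltransferase KAT2B had -0.33 (SE 0.20) and YY1 -0.15 (SE 0.09). The median of the 7 was -0.06 (0.01 without A2052), where the median of all genes was -0.01.

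Of 34 listed genes that p53 is known to induce, 13 were analysed. In TR3 vs. TR1, 2 were higher and 2 lower at an unadjusted p under 0.05, 7 had positive and 6 negative values, and the median was 0.08. Without A2052, 2 were higher and 1 lower, 9 had positive and 4 negative values, and the median was 0.16. Of all genes, 1.62% were then higher and 1.81% lower at that level. The antiproliferative gene BTG2 was higher by 0.66 (SE 0.22), with a mean of 6.52 ± 1.60 CPM in TR3 (SD, n = 9) and 4.37 ± 1.23 in TR1 (n = 9), and its value ran from 0.57 to 0.77 as each calf was left out. The BTG2 ranges overlapped, at 4.65 to 9.35 CPM in TR3 and 2.74 to 6.95 in TR1. PERP, a membrane protein of the apoptotic response, was higher by 2.58 (SE 0.82). PERP was hardly present, with medians of 0.154 CPM in TR1 and 0.293 in TR3, and its fold rested largely on the TR3 male A2033 at 4.83 CPM: without it the value was 1.43.

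THBS1, the matricellular protein thrombospondin, was lower by -1.27 (SE 0.35) on the log2 scale. Its medians were 6.92 CPM in TR1 and 5.07 in TR3, and A2052 had 65.1 CPM where the next TR1 calf had 23.4. Without A2052 the THBS1 value was -0.65 (SE 0.29), and without both TR1 females -0.10 (SE 0.31). The stress-induced sestrin SESN1 was lower by -1.12 (SE 0.42), and stood at 0.20 (SE 0.29) without A2052.

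CDKN1A, the cell cycle inhibitor p21 and the classical p53 target, differed by -0.40 (SE 0.53) in TR3 vs. TR1, and by 0.31 (SE 0.59) without A2052. Its CTR median was 43.7 CPM, and the medians of TR1, TR2 and TR3 were 37.7, 35.8 and 48.9 CPM, while A2052 alone had 257 CPM. The fructose-bisphosphatase TIGAR had group means of 18.6 ± 4.97 CPM in TR3 (SD, n = 9), 15.4 ± 3.95 in CTR (n = 10), 14.4 ± 5.24 in TR2 (n = 10) and 13.5 ± 5.31 in TR1 (n = 9). The place of TR1 in this order rested on A2052, which had 2.48 CPM: without it the TR1 mean was 14.9 ± 3.56 (n = 8), above that of TR2. The log2 fold change of TIGAR in TR3 vs. TR1 was 0.41 (SE 0.25), and 0.16 (SE 0.20) without A2052. Of the others, GADD45A stood at -0.54 (SE 0.37), AEN at 0.42 (SE 0.33), DDB2 at 0.17 (SE 0.16) and FDXR at 0.11 (SE 0.19).

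Against CTR, 1 of the 13 targets was higher and 0 lower at an unadjusted p under 0.05 in TR1 (THBS1, 0.73, SE 0.36), where 1.7% of genes were higher and 0.856% lower. In TR2, 2 were higher and 0 lower (CDKN1A 1.14, SE 0.52, and ANKRA2 0.33, SE 0.15), where 5.03% of genes were higher and 3.31% lower. In TR3, 1 was higher and 0 lower (BTG2, 0.52, SE 0.22), where 0.771% were higher and 0.579% lower. Without A2052 THBS1 stood at 0.27 (SE 0.29) in TR1 and CDKN1A at 0.95 (SE 0.51) in TR2, both no longer at an unadjusted p under 0.05, while ANKRA2 in TR2 was 0.32 (SE 0.14) and BTG2 in TR3 0.51 (SE 0.23), joined there at that level by DDB2 at 0.36 (SE 0.16). Without A2052, 0.810% of all genes were higher at that level in TR1, 5.31% in TR2 and 0.887% in TR3. No gene passed edgeR's test at an adjusted p of 0.05 in any of these 3 comparisons (0%), and DESeq2 called 0, 1 and 0. They share the CTR calves.

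Whether p53 targets varied with MDM2 from calf to calf was examined after group, sex and dam age had been taken out, a measure the choice of the gene did not use. Of all 12963 other genes, 2.22% had a positive and 1.96% a negative correlation at an adjusted permutation p under 0.05, and 10.4% and 10.8% at an unadjusted one. Of the 13 targets, 3 were positive and 2 negative at the unadjusted level, and the median r was 0.05. By Pearson's r only FDXR, the mitochondrial ferredoxin reductase, passed over all genes, and by Spearman's rho FDXR and TIGAR did. Its r was -0.50 and its rho -0.55 (permutation p = 0.0015 and 4.5e-04, adjusted 0.041 and 0.027), and r was -0.48 without the 2 calves farthest from the median of MDM2.

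TIGAR had r = 0.40 and rho = 0.51 (permutation p = 0.0136 and 0.0013, adjusted 0.122 and 0.044), and r = 0.37 without the 2 farthest calves. CDKN1A had r = 0.39 and rho = 0.46 (permutation p = 0.0167 and 0.0041, adjusted 0.134 and 0.069), and r = 0.34 without them. AEN, a p53-induced exonuclease, had r = 0.34 and rho = 0.35 (adjusted permutation p = 0.198 and 0.179), and r = 0.23 without them. The growth factor binding protein IGFBP3 had r = -0.33 and rho = -0.35 (adjusted permutation p = 0.225 and 0.181), and r = -0.28 without them. BTG2, higher in TR3 than in TR1 at the unadjusted level, had r = 0.05 and rho = 0.06 within groups (adjusted permutation p = 0.904 and 0.871), and r = -0.01 without the 2 calves.

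By Pearson's r these correlations depended on the scaling. Spearman's rho was not computed in the settings that follow. With CPM per library count in place of TMM, 0 of the 12963 genes passed, FDXR included, against 542 with TMM. With group alone taken out, 490 genes and 0 of the 13 targets passed, and without both TR1 females 766 genes and 2 targets passed.

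**Figure D3:**
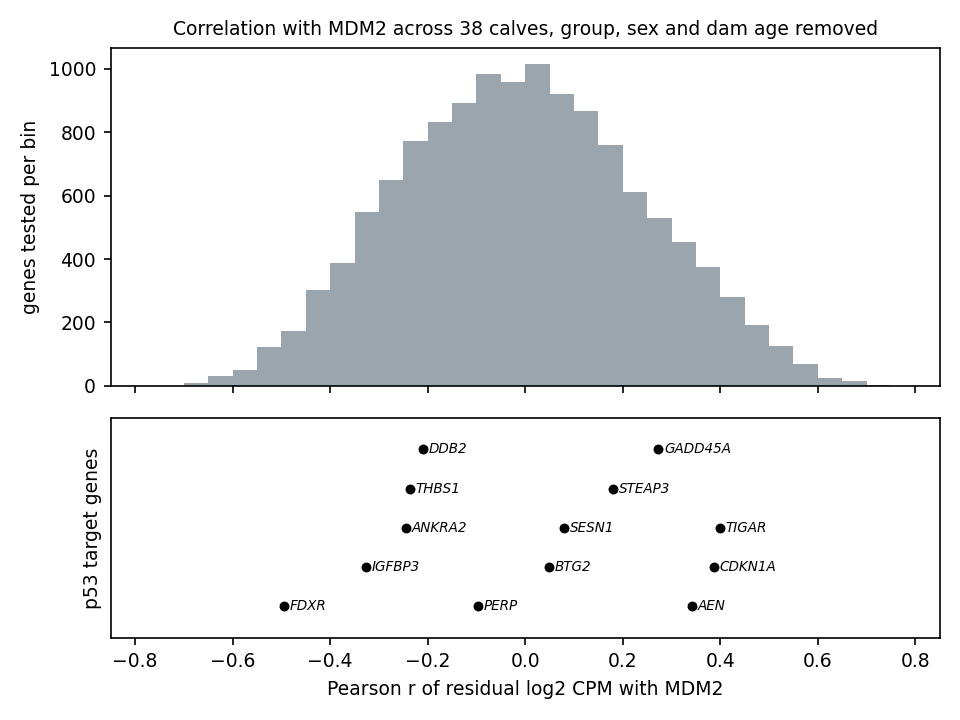
Pearson correlation of each gene with MDM2 across 38 calves after group, sex and dam age were removed from log2 CPM (horizontal axis), as the number of genes per bin of 0.05 for all 12963 other genes (upper panel) and as labelled points for the 13 p53 target genes analysed (lower panel, vertical position arbitrary). The targets spread from FDXR at -0.50 to TIGAR at 0.40 around a median of 0.05.

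Of a list of 12 other proteins that MDM2 binds or ubiquitinates, 5 were analysed. Their names had the same source as those of the p53 lists, so the way they point is no separate support. All 5 had negative values in TR3 vs. TR1, with a median of -0.53. At an unadjusted p under 0.05 1 was lower, where 4.08% of all genes were. Without A2052, 3 were negative and 2 positive, and the median was -0.11. None then had an unadjusted p under 0.05, where 1.62% of all genes were higher and 1.81% lower. The lower one was IGF1R, the receptor of insulin-like growth factor 1, at -0.69 (SE 0.31), and 0.06 (SE 0.24) without A2052. The FOXO factors stood at -0.99 (SE 0.50) for FOXO1, -0.53 (SE 0.38) for FOXO3 and -0.39 (SE 0.20) for FOXO4, and without A2052 at -0.36 (SE 0.49), 0.29 (SE 0.34) and -0.11 (SE 0.19). The glucocorticoid receptor NR3C1 had -0.14 (SE 0.12), and -0.12 (SE 0.13) without A2052. Within groups, the correlation with MDM2 was r = -0.38 and rho = -0.41 for FOXO4 (adjusted permutation p = 0.146 and 0.109; r = -0.30 without the 2 farthest calves) and r = 0.23 and rho = 0.35 for FOXO3 (adjusted permutation p = 0.427 and 0.188; r = 0.25 without them).

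PCK2, the mitochondrial phosphoenolpyruvate carboxykinase, is named beside MDM2 among genes that answer to FOXO factors. It varied far more than MDM2. Its lowest, median and highest values were 0.734, 6.49 and 46.9 CPM in TR3, 0.394, 3.81 and 23.9 in CTR, 0.208, 2.21 and 13.4 in TR2, and 0.293, 1.54 and 37.9 in TR1. The 4 groups overlapped almost wholly. The log2 fold change of PCK2 was 0.06 (SE 0.88) in TR1 vs. CTR, 0.67 (SE 0.82) in TR3 vs. CTR and 0.61 (SE 0.93) in TR3 vs. TR1. Within groups PCK2 and MDM2 had r = 0.53 and rho = 0.50 (permutation p = 6.7e-04 and 0.0017, adjusted over all genes 0.029 and 0.048), and r = 0.41 without the 2 calves farthest from the median of MDM2. By Pearson's r this too passed with TMM and not with library size, where rho was not computed. Over the 16 analysed FOXO-responsive genes, PCK2 among them, the median r was -0.17, and 1 was positive and 3 negative at an unadjusted permutation p under 0.05, beside the 10.4% and 10.8% of all genes given above. The negative ones were GABARAPL1 (r = -0.43, rho = -0.44; adjusted permutation p = 0.091 and 0.080; r = -0.37 without the 2 farthest calves), GADD45B (r = -0.36, rho = -0.43; adjusted 0.169 and 0.081; r = -0.33) and PDK4 (r = -0.33, rho = -0.32; adjusted 0.223 and 0.233; r = -0.19).

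Of 20 listed FOXO-responsive genes, MDM2 not counted, 16 were analysed. Their names too came from the study's own lists of genes that differed in these calves. Their counts beside the share of all genes are therefore no separate support. In TR3 vs. TR1, 14 of the 16 had a negative value, with a median of -0.64. Without A2052, 11 were negative and the median was -0.10, and without both TR1 females TRIM63, PDK4, IRS2, KLF15 and GABARAPL1 had positive values, from 0.16 to 0.40. With all calves, 4.08% of all genes were lower and 1.77% higher in this contrast at an unadjusted p under 0.05. Of the 16 genes, 8 were lower and 0 higher at that level. They were the atrophy ligases FBXO32 (-1.93, SE 0.71) and TRIM63 (-1.06, SE 0.37), the factor KLF15 (-1.72, SE 0.48), the insulin receptor substrate IRS2 (-1.59, SE 0.55), the kinase PDK4 (-1.31, SE 0.55), the autophagy genes GABARAPL1 (-1.28, SE 0.48) and BNIP3 (-0.60, SE 0.22), and the translation repressor EIF4EBP1 (-0.98, SE 0.36).

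All 8 rested on A2052. FBXO32 had 3.94, 9.14 and 159 CPM as the lowest, median and highest value in TR1, and 2.94, 5.80 and 13.2 in TR3. The highest TR1 value was A2052, and the next was 30.4 CPM. Without this calf 0 of the 16 genes were lower at an unadjusted p under 0.05, where 1.81% of all genes were. FBXO32 then stood at -0.21 (SE 0.60), KLF15 at -0.40 (SE 0.32) and TRIM63 at -0.04 (SE 0.25). Over all genes, the number with an unadjusted p under 0.05 in TR3 vs. TR1 went from 758 to 445 without it. The difference of MDM2 was nearly as large without A2052, at 0.53 in place of 0.58.

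**Figure D4:**
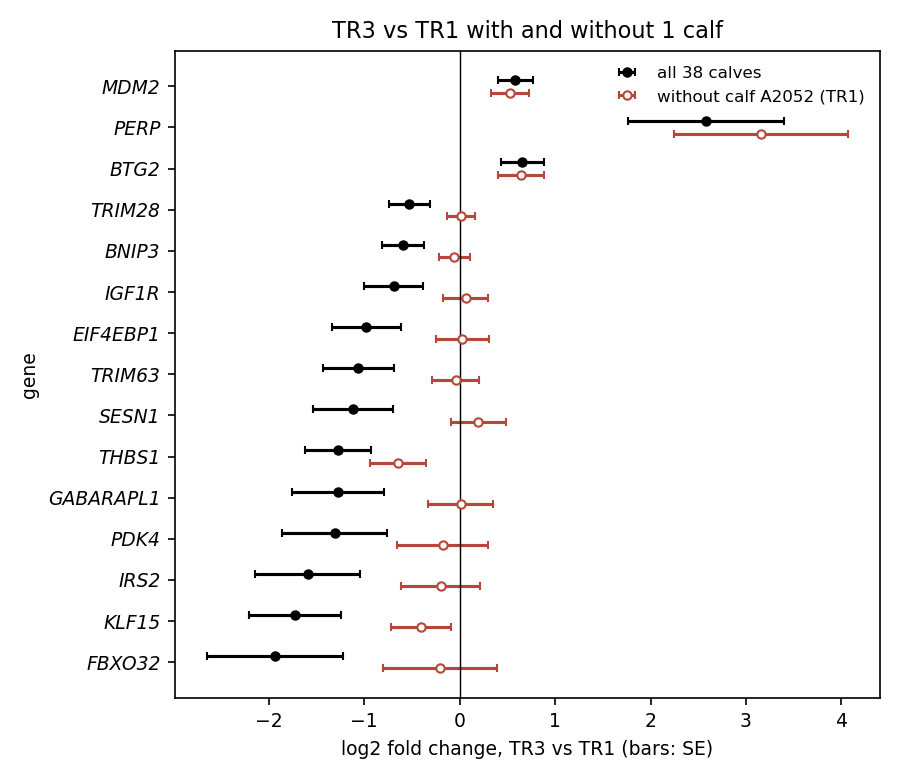
Log2 fold change of TR3 vs. TR1 (horizontal axis, bars of 1 SE) for MDM2 and the 14 genes of the p53, MDM2-bound and FOXO lists with an unadjusted p under 0.05 (vertical axis), with all calves (filled) and without the TR1 calf A2052 (open). MDM2, BTG2 and PERP stay on the positive side, while FBXO32 goes from -1.93 to -0.21 and SESN1 from -1.12 to 0.20.

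Scores of the muscle and fasting programmes were put into the model of MDM2 as terms, chosen after the data were seen. With the score of 19 skeletal muscle markers the TR3 vs. TR1 value was 0.38 (SE 0.18), and with the score of 16 glucocorticoid and fasting genes it was 0.50 (SE 0.18). The median muscle score was -0.10 in TR1 and 0.22 in TR3. Several fast fibre genes went with MDM2 within groups, MYH1 at r = 0.57 and rho = 0.52 (adjusted permutation p = 0.017 and 0.040; 0.48 without the 2 farthest calves) and MYLPF at r = 0.53 and rho = 0.52 (adjusted permutation p = 0.029 and 0.041; 0.45 without them). Of the 19 muscle markers, 3 passed by Pearson's r (MYH1, MYLPF and TNNT3) and 4 by Spearman's rho (these and CASQ1), all positive. By Pearson's r 2.22% of all genes passed with a positive and 1.96% with a negative value. With library size in place of TMM, 0 of the 12963 genes passed by Pearson's r, these markers included. At an unadjusted permutation p under 0.05 by Pearson's r, 10.4% of all genes were positive and 10.8% negative. Of the 19 markers, 9 were positive and 1 negative at that level. The negative one was the intermediate filament gene DES at r = -0.41 and rho = -0.37 (adjusted permutation p = 0.106 and 0.151, and r = -0.36 without the 2 farthest calves). MYH2 of another fast fibre type had r = 0.04 and rho = 0.01 (adjusted permutation p = 0.933 and 0.993). The part of muscle content in the MDM2 level was not tested.

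The named genes most like MDM2 were sought among 2588 of the 11676 genes of at least 1 CPM, by Pearson's r of log2 CPM over all 38 calves. Only genes in the study's supplementary tables had a name, so they are not a neutral sample. The highest was PRKAA2, a catalytic subunit of AMP-activated protein kinase, with r = 0.73, and 0.70 after group, sex and dam age were taken out. Next came CPEB3 (0.72, then 0.69), an RNA-binding regulator of translation, BCORL1 (0.71, then 0.70), a transcriptional corepressor, CCAR1 (0.69, then 0.58), SLC1A4 (0.67, then 0.66), a neutral amino acid transporter, and MYPN (0.67, then 0.63), the sarcomere protein myopalladin. Their log2 fold changes in TR3 vs. TR1 ran from 0.30 for MYPN to 0.62 for SLC1A4. Among genes without a name, 6 had a higher r than SLC1A4 or MYPN, 1 than BCORL1 or CCAR1, and 0 than PRKAA2 or CPEB3.

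PRKAA2 had 4.90, 11.0 and 20.6 CPM as the lowest, median and highest value in TR1, 8.07, 12.4 and 24.5 in CTR, 8.14, 15.05 and 25.1 in TR2, and 8.19, 15.97 and 26.2 in TR3. Its lowest mean was in TR1 and its highest in TR3, with all groups overlapping. At the other end were PLEKHO1 (-0.68), AEBP1 (-0.68), ABCA1 (-0.65), the cholesterol exporter, and LGALS4 (-0.65), with -0.67, -0.62, -0.67 and -0.62 after the same terms were taken out. Beyond each gene named at this low end lay 1 or 2 genes without a name. Of 11676 genes at 1 CPM or more, 234 had r above 0.5 and 163 below -0.5. The calves shared their scaling, and no test was made of these genes, since they were picked for r.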

How the data were processed

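The authors trimmed the reads, mapped them to ARS-UCD1.2 with STAR 2.7.3a and took gene counts from its run with the Ensembl annotation. The deposited values are raw counts of 27607 genes in 38 calves. The libraries were stranded, and which strand column was kept is not given in the sources used here. From the counts, edgeR 4.0.16 (filterByExpr, TMM, estimateDisp, glmQLFit) was run on 12964 genes in all 38 calves with dam age, sex and group, and p values were adjusted by Benjamini-Hochberg over these genes. SE is the log2 fold change over the root of F. Groups, sexes and dam ages came from the labels. Nothing says that calves were pooled, and replicate libraries of a group differed by more than sampling noise. Gene symbols (2886 IDs) came from the supplementary tables, as 0 genes of the RefSeq table carried an Ensembl ID, so other list members were not analysed here. Some genes of the lists are not reported here and are in none of the counts.

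Correlations used log2 CPM (prior count 2), 100000 two-sided permutations of residuals (Python 3.11.15, numpy 2.4.6), adjusted over all genes. Residuals were permuted as free values though group, sex and dam age had been fitted, which makes these p somewhat too small. The plan had adjusted over the p53 targets, which is not printed since the genes were chosen with results known. Named genes were taken from the analysed members of the p53, MDM2-bound and FOXO lists, those with the smallest p first and not every member, and the 6 most and 4 least like MDM2. MDM2, the lists and the likeness rule were chosen with earlier results of these data known. Scores are means over a list of log2 CPM in SD units. Both methods were tested on simulated data. Alternatives were library size, no filter, DESeq2 1.42.0, a robust fit, other covariates or groups, and each calf left out.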

Additional observations from a re-analysis of the deposited data

Results flagged for a closer look

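Each group of calves was searched for a single value far from the others in MDM2 and 7 other genes, 32 groups in all. The 7 were BTG2, CDKN1A, FBXO32, PCK2, PRKAA2, THBS1 and TIGAR. PERP was not searched. The rule used flags about 1 in 20 groups by chance where values are normally distributed. CPM were used without a log and can be skewed upward, so that rate does not hold here. Such a value was found in 7 of the 32 groups, each time in the highest calf and never in MDM2. This number cannot be read as an excess over chance. The TR1 female A2052 was far above the other TR1 calves in 3 genes: CDKN1A at 257 CPM (next calf 108), FBXO32 at 159 CPM (next 30.4) and THBS1 at 65.1 CPM (next 23.4). In TR2 the male A2099 had 92.6 CPM of FBXO32 (next 39.9) and the female A2079 had 13.4 CPM of PCK2 (next 6.91). In TR3 the female A2065 had 46.9 CPM of PCK2 (next 19.6), and in CTR the male A2088 had 10.0 CPM of BTG2 (next 6.21).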

How the results depend on the processing

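The direction of MDM2 in TR3 vs. TR1 was the same in all settings run, from 0.45 to 0.70 as each calf was left out, from 0.47 (no covariates) to 0.71 (only the 2 groups in the fit) in the planned settings, and 0.33 without both TR1 females, 0.40 with males only and 0.57 with the number in the calf's name as a term, which were added after seeing the data. As each calf was left out, TR1 vs. CTR ran from -0.42 to -0.20 and TR3 vs. CTR from 0.23 to 0.41. TR2 vs. CTR ran from -0.20 (without A2035) to -0.03 (without A2041), and was 0.02 with the glucocorticoid and fasting score. TR1 vs. CTR was 0.02 with males only. The dam age slope ran from 0.027 (without A2058) to 0.115 (without A2035). The sex difference ran from -0.23 to -0.05, and turned to 0.036 without both TR1 females.

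Genes called at an adjusted p of 0.05 were 0 in each group contrast. Without the filter on low counts TR3 vs. CTR had 2 and TR3 vs. TR1 had 11, and DESeq2 gave TR2 vs. CTR 1. As each calf was left out, TR1 vs. CTR had 0 to 1 (1 without A2075, A2096, A2068, A2033 or A2074) and TR2 vs. CTR 0 to 1 (1 without A2068). The count of p53 targets correlated with MDM2, 1, was 0 with library size, 0 with group alone taken out and 2 without both TR1 females. The cause was not tested. In TR3 vs. TR1, leaving out each calf gave -0.61 to 0.011 for TRIM28, -1.24 to 0.20 for SESN1, -0.78 to 0.062 for IGF1R, -1.69 to 0.0097 for GABARAPL1 and -1.15 to 0.030 for EIF4EBP1, the upper end being without A2052 in each. Without both TR1 females TRIM28 was 0.066, SESN1 0.25, IGF1R 0.19, TRIM63 0.27, PDK4 0.40, IRS2 0.33, KLF15 0.16 and GABARAPL1 0.40. No paired analysis was possible because the labels give no replicate numbers and each calf is in 1 group.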
